A study of Mus musculus with 6 samples.

Results

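The calpain system of the mouse intervertebral disc (IVD) was described with 9 genes, namely the calpains Capn1, Capn2, Capn3, Capn5, Capn6, Capn7 and Capn10, the small subunit Capns1 and the calpastatin gene Cast. The genes were chosen by symbol, out of 43472 gene symbols in the deposited files, and all 9 were found. IVDs were taken from the thoracic and lumbar spine of C57B6/J mice at postnatal day 20 (P20), and poly(A) RNA was sequenced from 6 pools, each of discs from 2 to 3 mice. Mutant pools, 3 in number, came from Col2Cre; Adgrg6f/f mice, in which a Cre under a type II collagen promoter deletes a floxed part of Adgrg6, an adhesion G protein-coupled receptor, in cartilage of the disc and also in the outermost annulus and the periosteum. There were 3 control pools. Their mice are littermates without Cre in the study's methods, wild type in the genotype labels and Col2Cre controls in the titles, and which of these holds cannot be told from the counts. At this age the study saw no overt change in the tissue sections of the mutant discs.

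Calpains are cysteine proteases of the cytosol that are activated by calcium and cut their targets at a few places instead of degrading them. The classical enzymes, mu-calpain and m-calpain, pair a large catalytic subunit from Capn1 or Capn2 with the small subunit from Capns1, and calpastatin is their specific inhibitor. In cartilage, classical calpains are known for cleavage of aggrecan, the main proteoglycan, and of cytoskeletal and adhesion proteins. Calpain 3 is best known from skeletal muscle, where it binds titin, needs no small subunit, is not held back by calpastatin, and causes a limb-girdle muscular dystrophy when lost.

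Calpains share a short stretch around the cysteine that attacks the target, and this stretch shows which members keep a codon for that cysteine. Each line gives 27 bases of coding sequence, 5′ to 3′, from the GENCODE M21 transcript of the gene on GRCm38, with the codon aligned to the active-site cysteine codon of Capn2 in capitals.
Capn1: gcactgggggacTGTtggctcctggct
Capn2: gccctgggggacTGCtggctgctggct
Capn3: gatctaggggacTGCtggtttcttgca
Capn5: caggtgggcaacTGCtggtttgtggct
Capn6: agattggggaacAAGgcaatgatctct
Capn7: atagtatcagatTGTtcctttgtggca
Capn10: ctgctgggagatTGCtggttcctgtgt
The codon encodes cysteine, as TGT or TGC, in 6 of these 7 genes. In Capn6 it is AAG, a lysine codon, which lies at chrX:143810899-143810901 in exon 3. The Capn3 codon lies at chr2:120482115-120482117, also in exon 3. Translated along their whole coding sequence, the other 6 calpains matched Capn2 at 28.2% (Capn7) to 61.5% (Capn1) of aligned residues, and Capn3 matched it at 53.2%.

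Counts on genes were 9061491 to 12017008 per library, with TMM factors of 0.892 to 1.149, and expression is given in CPM, the count of a gene relative to its TMM-scaled library size. Genotypes were compared by edgeR's quasi-likelihood test over 16152 genes. Of these, 7.21% had an unadjusted p under 0.05 (4.32% of all genes tested were lower and 2.89% higher in mutant IVDs), while 0.00619% (1 gene, not a calpain) had a Benjamini-Hochberg adjusted p under 0.05. The targeted gene, listed by its older symbol Gpr126, was at 124, 108 and 94.3 CPM in the control and at 138, 124 and 106 CPM in the mutant libraries, with the values of a genotype in the order of replicates 1, 2 and 3 here and throughout (log2 fold change 0.17 ± 0.18 with its standard error, SE, and edgeR unadjusted p = 0.367). Counts over the whole gene do not measure the deleted part, so this does not check the labels. As bulk samples, the pools do not separate fewer cells of a type from less RNA per cell.

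Control replicates 1 and 3 stood apart from the other libraries. Skeletal muscle genes, a list of 26, summed to 6593 CPM in control replicate 1 and to 268 to 402 CPM in the other 5 libraries. On the 24083 genes with annotated exons that were too low to test, control replicates 1, 2 and 3 held 0.0711, 0.125 and 0.195 CPM per kilobase and mutant replicates 1, 2 and 3 held 0.0591, 0.0688 and 0.0674. Control replicate 3 was the highest, and every control lay above every mutant library, control replicate 1 by a narrow margin. The difference of this measure between genotypes was not tested. Control replicate 3, the library with the highest Capn3, also had the lowest sum of 14 disc and cartilage genes, 95001 CPM against 126960 to 158896 CPM in the other 5, and the lowest sum of 7 outer annulus and tendon genes, 10621 CPM against 18507 to 40958 CPM. The part of this in the Capn3 values was not tested, and without this library Capn3 was at -1.66 on the log2 fold change scale (edgeR unadjusted p = 0.0138). Without control replicate 1, 5.25% of 17164 tested genes were higher and 8.89% lower in mutant IVDs at an unadjusted p under 0.05, and without control replicate 3, 1.76% of 16388 were higher and 2.01% lower. Counts below from fits without these libraries stand beside these shares.

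Capn3 was lower, and Cast and Capn5 were higher, in mutant than in control IVDs, each with an unadjusted p under 0.05 and with every mutant library on one side of every control library. After Benjamini-Hochberg adjustment, none of the 9 members passed 0.05 in edgeR, and none did in DESeq2 or limma-voom, while 1, Capn3, passed in edgeR when low counts were not filtered. All 9 passed the filter on low counts, 7 had a fold change above 0 and 2 below it, and their median log2 fold change was 0.07, beside -0.01 over all genes tested. The 3 members past the unadjusted threshold stand beside the 7.21% of all genes given above. Groups did not overlap in the same 3 members, and in 11.4% of all genes tested, 5.45% with mutant libraries higher and 5.96% with them lower. At an unadjusted p under 0.05, Capn3 and Cast were also the members called by DESeq2, beside 6.07% of 26372 genes, and by edgeR without the filter, beside 8.62% of 26418 genes, while limma-voom also called Capn5, beside 9.14% of 16152 genes.

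**Figure D1:**
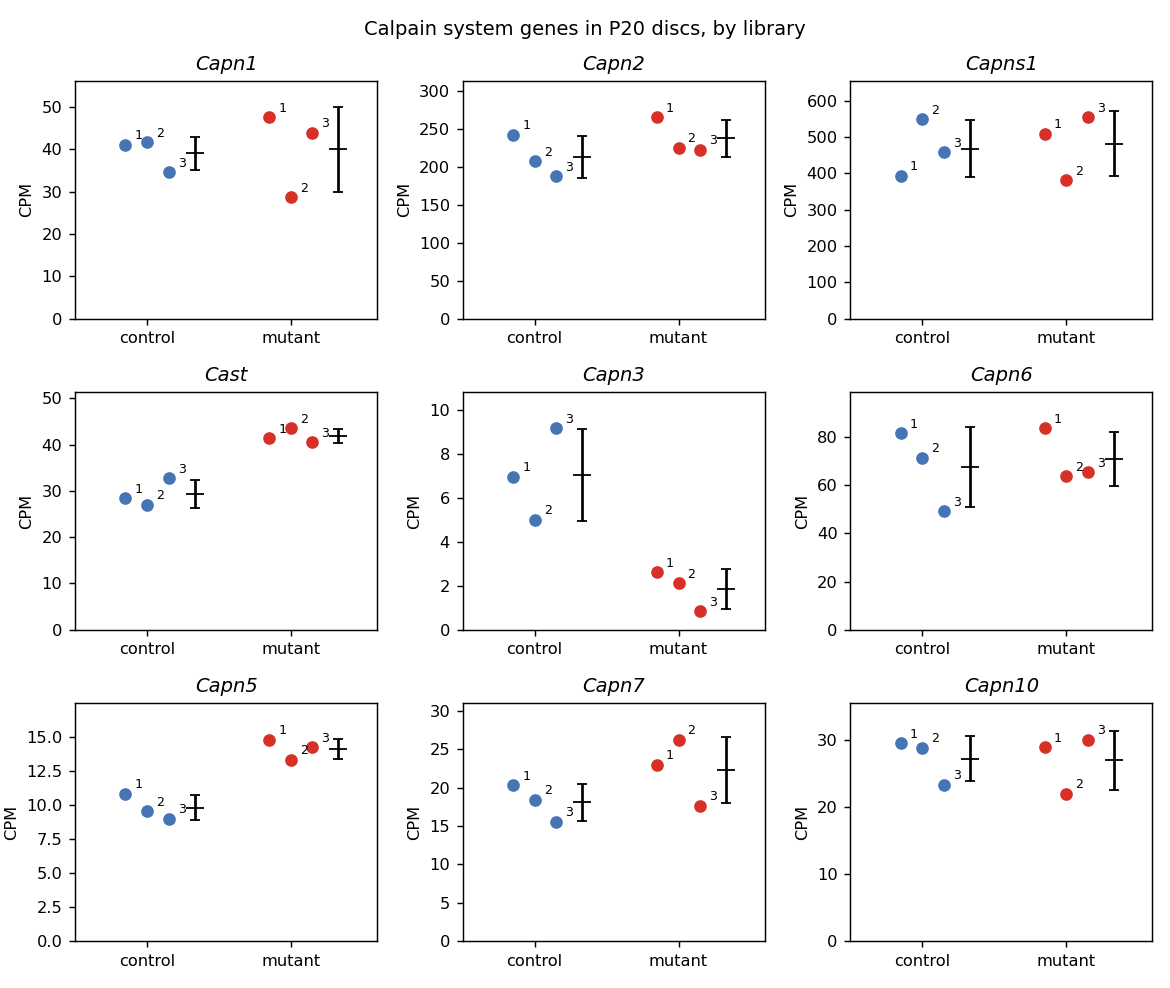
Expression of the 9 members in CPM (y axis, from 0) in the 3 control and 3 mutant libraries (x axis), each point 1 library with its replicate number and each bar the mean ± SD. Groups are apart for Capn3 (lower in mutant), Cast and Capn5 (higher in mutant), and overlap for the other 6 genes.

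Among the classical large subunits, Capn2 was the more abundant, and neither it nor Capn1 passed the test. Capn1, the catalytic subunit of mu-calpain on the minus strand of chr19:5988545-6015897, was at 41.1, 41.6 and 34.6 CPM in the control and at 47.6, 28.6 and 43.9 CPM in the mutant libraries. The lowest and the highest library were both mutant (log2 fold change 0.03 ± 0.21 SE, edgeR unadjusted p = 0.881). Capn2, the catalytic subunit of m-calpain on the minus strand of chr1:182467260-182517608, was at 243, 208 and 188 CPM in control and at 266, 225 and 223 CPM in mutant libraries. Control replicate 1 lay above mutant replicates 2 and 3, and the fold change was within the spread between libraries (log2 fold change 0.16 ± 0.18 SE, unadjusted p = 0.404). Within a library, the log2 ratio of Capn2 to Capn1 counts was 2.44 ± 0.12 (SD, n = 3) in control and 2.60 ± 0.33 (SD, n = 3) in mutant IVDs, with overlapping groups.

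Capns1, the regulatory small subunit that both classical enzymes need, had the highest level of the system. It lies on the minus strand of chr7:30186936-30198811 and was at 394, 550 and 459 CPM in control and at 509, 381 and 554 CPM in mutant libraries. The groups overlapped throughout their range (log2 fold change 0.04 ± 0.22 SE, edgeR unadjusted p = 0.850). Relative to the summed Capn1 and Capn2 counts of the same library, Capns1 was at a log2 ratio of 0.89 ± 0.36 (SD, n = 3) in control and 0.78 ± 0.25 (SD, n = 3) in mutant IVDs. The 3 genes that make up the classical enzymes thus showed no change past the test. The sign of Capn1 turned below 0 without control replicate 3 or either of mutant replicates 1 and 3, and that of Capns1 without control replicate 1 or mutant replicate 3.

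Cast, which encodes calpastatin, the inhibitor of the classical enzymes, was higher in mutant IVDs. The gene lies on the minus strand of chr13:74692368-74808810 and was at 28.4, 27.0 and 32.8 CPM in control replicates 1, 2 and 3, from 265, 243 and 419 counts. In mutant replicates 1, 2 and 3 it was at 41.4, 43.5 and 40.5 CPM, from 364, 533 and 381 counts. All 3 mutant libraries lay above all 3 controls, and the mutant values differed less among themselves than the control values. The mean rose from 29.4 ± 3.02 CPM to 41.8 ± 1.54 CPM (SD, n = 3 each), a ratio of 1.42. By edgeR, the log2 fold change was 0.51 ± 0.16 SE (unadjusted p = 0.00897, Benjamini-Hochberg adjusted p = 0.676), and over the alternatives the adjusted p ranged from 0.256 to 0.999. With any 1 library left out, its log2 fold change remained within 0.44 to 0.60 and the unadjusted p between 0.00888 and 0.0439.

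Scaling between libraries can be avoided by taking Cast relative to its own targets. The log2 ratio of Cast counts to the sum of Capn1 and Capn2 counts was -3.32, -3.21 and -2.76 in the controls and -2.92, -2.54 and -2.72 in the mutants. Control replicate 3 lay above mutant replicate 1, so that the groups overlapped on this measure although those of Cast itself did not. The means were -3.10 ± 0.30 and -2.73 ± 0.19 (SD, n = 3 each), a difference of 0.37 on the log2 scale, and it stayed between 0.26 and 0.54 with any 1 library left out. Per kilobase of exon, Cast was at 5.15 ± 0.53 CPM in control IVDs, below Capn1 at 12.4 ± 1.24 and Capn2 at 66.0 ± 8.58 (SD, n = 3).

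Capn3, the muscle-type calpain, had the largest fold change of the 9 members and was the only member that was lower past the test. It lies on the plus strand of chr2:120456019-120504913 and was at 6.96, 5.0 and 9.15 CPM in control replicates 1, 2 and 3, from 65, 45 and 117 counts. In mutant replicates 1, 2 and 3 it was at 2.62, 2.12 and 0.850 CPM, from 23, 26 and 8 counts. The highest mutant library was below the lowest control library. The mean was 7.03 ± 2.08 CPM in control and 1.86 ± 0.912 CPM in mutant IVDs (SD, n = 3 each), 3.77-fold lower in mutant. By edgeR, the log2 fold change was -1.91 ± 0.49 SE (unadjusted p = 0.00274, Benjamini-Hochberg adjusted p = 0.625), beside 6.10% of all genes with an at least 2-fold lower estimate in mutant IVDs.

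The depth behind Capn3 is small, and it limits what single libraries show. Exact 95% Poisson intervals, which cover counting error only, were 5.37 to 8.87, 3.64 to 6.69 and 7.56 to 10.96 CPM in control replicates 1, 2 and 3. In mutant replicates 1, 2 and 3 they were 1.66 to 3.93, 1.39 to 3.11 and 0.367 to 1.67 CPM. The interval of control replicate 2 overlapped that of mutant replicate 1, and no other control interval met a mutant one. At the level of 1.023 CPM that the filter asks for, Capn3 was above it in all 3 control and in 2 mutant libraries.

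In the 11 alternatives run, the adjusted p of Capn3 was under 0.05 only without the filter on low counts. Its direction and its unadjusted call were the same in all 11. With edgeR and no filter on low counts, the adjusted p was 0.0410 at a log2 fold change of -1.89, among 0.927% of 26418 genes that passed. With DESeq2 the adjusted p was 0.0791, where 0.197% of genes passed 0.05, and with limma-voom and quality weights it was 0.478, where 0 genes passed. Over all alternatives, the Benjamini-Hochberg adjusted p ranged from 0.0410 to 0.999. With any 1 library left out, the log2 fold change lay between -2.18 and -1.57 and the unadjusted p from edgeR between 0.00317 and 0.0138. Relative to the sum of Capn1 and Capn2 counts of the same library, Capn3 was at a log2 ratio of -5.20 ± 0.53 in control and -7.37 ± 0.80 in mutant IVDs (SD, n = 3 each), a difference of -2.17 with groups that did not overlap.

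**Figure D2:**
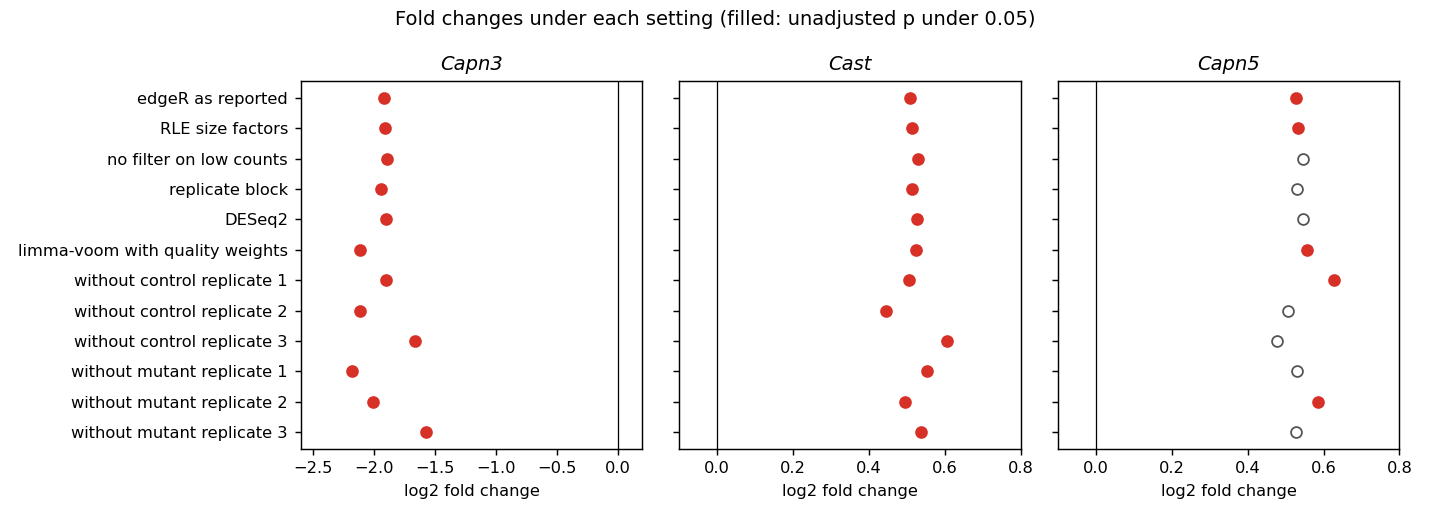
Log2 fold changes, mutant over control (x axis), of Capn3, Cast and Capn5 in the edgeR test and under 11 other settings (y axis), filled where the unadjusted p was under 0.05. Capn3 stays between -2.18 and -1.57 and Cast between 0.44 and 0.60, all filled, while Capn5 is open in 7 of the 11 settings.

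Since Capn3 is a muscle gene, its values were set beside those of the skeletal muscle list library by library. Of 26 listed genes, 25 were tested, all 25 had a fold change below 0, and 22 had an unadjusted p under 0.05, beside 4.32% of all genes lower, at a median log2 fold change of -3.06. Control replicate 1 carried this: Acta1, skeletal actin, was at 1260 CPM there and at 11.1 to 65.4 CPM in the other libraries, Myh1, a fast myosin, at 958 and at 2.00 to 18.7 CPM, and Tnni2, fast troponin I, at 361 and at 117 to 160 CPM. Without control replicate 1, 16 of 25 tested muscle genes had a fold change above 0, 6 were higher and 0 lower at an unadjusted p under 0.05, and the median was 0.29. Actn2, Neb, Tcap and Ryr1 were lower in every mutant than in every control library, as Capn3 was. Actn2 was at 2.03 to 87.5 CPM in control and 1.25 to 1.71 CPM in mutant libraries. Neb was at 5.55 to 49.4 and 3.64 to 5.14 CPM, and Tcap at 3.67 to 42.0 and 1.22 to 3.64 CPM. Ryr1 was at 7.77 to 102 and 4.10 to 7.59 CPM. The groups of the other listed muscle genes overlapped. The highest Capn3 value was in control replicate 3, where the muscle list summed to 268 CPM, the lowest of the 6 libraries. Without control replicate 1, the log2 fold change of Capn3 was -1.90 (unadjusted p = 0.00481 from edgeR). None of the 26 muscle genes was at 0 in all libraries, and the part of muscle RNA in the Capn3 counts was not tested.

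The counts on genes too low to test moved in the direction of Capn3, lower in every mutant than in every control library and highest in control replicate 3, as Capn3 was. At the length of the Capn3 exons, that background would give 0.695 CPM in control replicate 3, 0.254 and 0.447 CPM in control replicates 1 and 2, and 0.211 to 0.246 CPM in mutant libraries. Capn3 stood above it in each library, the least in mutant replicate 3, at 0.850 CPM compared with 0.241. With the background subtracted from each library, a step chosen after the values were seen, Capn3 was 4.03-fold lower in mutant IVDs, at 1.63 ± 0.923 CPM compared with 6.57 ± 1.95 CPM (SD, n = 3 each). An edgeR fit that left out control replicate 3 gave Capn3 a log2 fold change of -1.66 (unadjusted p = 0.0138). The part of this background in the Capn3 values was not tested.

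**Figure D3:**
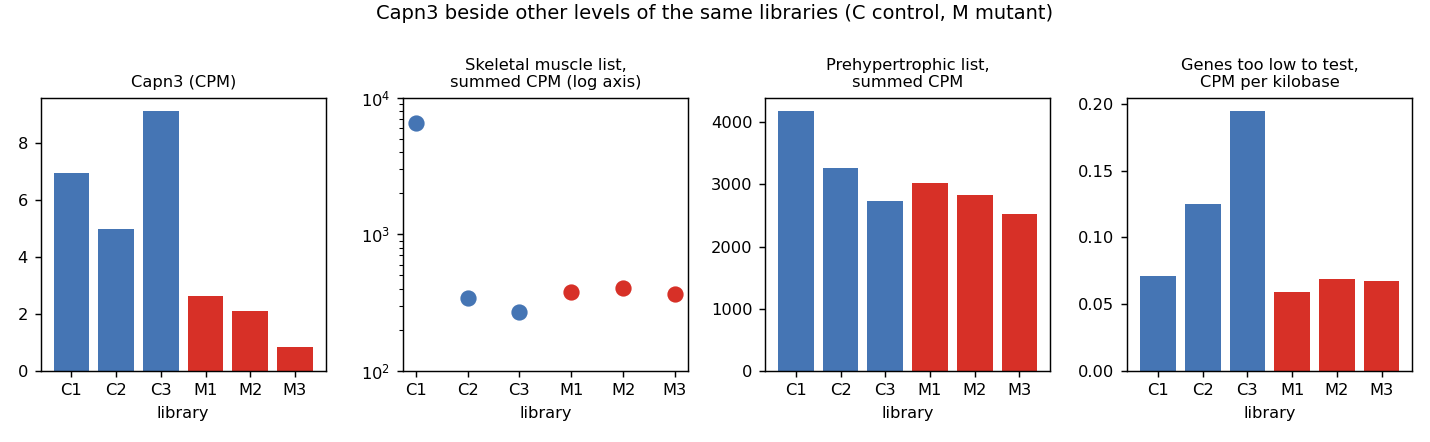
Levels in each library (x axis; C1 to C3 control, M1 to M3 mutant): Capn3 in CPM, the summed CPM of the skeletal muscle list on a log axis, the summed CPM of the prehypertrophic and hypertrophic list, and the CPM per kilobase on genes too low to test. Muscle RNA is high in C1 alone, at 6593 CPM, and the counts on low genes are highest in C3, at 0.195 CPM per kilobase. Capn3 is between 5.0 and 9.15 CPM in all 3 controls.

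Capn3 shares 386 exon bases with Ganc, a neutral glucosidase gene on the same strand at chr2:120403896-120461700. Ganc was at 5.67, 7.22 and 6.88 CPM in control and at 6.60, 7.75 and 7.12 CPM in mutant libraries, with overlapping groups (log2 fold change 0.12 ± 0.29 SE, edgeR unadjusted p = 0.686). Ganc thus showed no change past the test beside that of Capn3. Cast in the same way shares 834 exon bases with Erap1, an aminopeptidase gene on the opposite strand, at 4.28, 5.55 and 4.77 CPM in control and 3.53, 6.53 and 5.63 CPM in mutant libraries (log2 fold change 0.11 ± 0.37 SE, unadjusted p = 0.776). Capn3 and Ganc lie on the same strand, so strand could not separate their shared bases. For Cast and Erap1 it could not either, as the kit does not mark strand. Reads from such shared bases thus cannot be assigned to a single gene.

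Capn6, the calpain with a lysine codon in place of the active-site cysteine, is known for binding and stabilising microtubules. It lies on the minus strand of chrX:143802231-143827414 and was at 81.6, 71.4 and 49.1 CPM in control and at 83.5, 63.7 and 65.3 CPM in mutant libraries. Control replicate 3 was the lowest library, and the groups overlapped (log2 fold change 0.07 ± 0.21 SE, edgeR unadjusted p = 0.738). Its sign turned below 0 without control replicate 3 or mutant replicate 1.

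Of the calpains that lack the calmodulin-like end of the classical subunits, Capn5 was higher in mutant IVDs, but less firmly than Cast. Capn5, related to the worm sex-determination protease TRA-3, lies on the minus strand of chr7:98121559-98178274 and was at 10.8, 9.55 and 8.99 CPM in control replicates 1, 2 and 3, from 101, 86 and 115 counts. In mutant replicates 1, 2 and 3 it was at 14.8, 13.3 and 14.2 CPM, from 130, 163 and 134 counts. All mutant libraries lay above all controls, and the mean was 9.78 ± 0.932 CPM in control and 14.1 ± 0.754 CPM in mutant IVDs (SD, n = 3 each), a ratio of 1.44. By edgeR, the log2 fold change was 0.53 ± 0.22 SE (unadjusted p = 0.0351, Benjamini-Hochberg adjusted p = 0.676), and the adjusted p ranged from 0.299 to 0.999 over the alternatives. The unadjusted p was 0.05 or more in 7 of 11 alternatives, among them 0.0682 with DESeq2 and 0.0582 without the filter, and 0.0823, 0.0769, 0.0677 and 0.0728 without control replicate 2, control replicate 3, mutant replicate 1 and mutant replicate 3. The fold change itself stayed between 0.48 and 0.63 with any 1 library left out.

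Capn7, which binds proteins of the ESCRT-III membrane-cutting machinery, and Capn10, linked in people to the risk of type 2 diabetes, did not pass the test. Capn7, on the plus strand of chr14:31336638-31371986, was at 20.3, 18.4 and 15.6 CPM in control and at 23.0, 26.3 and 17.6 CPM in mutant libraries (log2 fold change 0.30 ± 0.21 SE, edgeR unadjusted p = 0.179). Mutant replicate 3 lay below control replicates 1 and 2. Capn10, on the plus strand of chr1:92934376-92947941, was at 29.5, 28.9 and 23.3 CPM in control and at 28.9, 22.0 and 30.1 CPM in mutant libraries, the groups covering nearly the same range (log2 fold change -0.01 ± 0.19 SE, unadjusted p = 0.943, with a sign that turned above 0 in 6 alternatives). An antisense transcript, 9430060I03Rik, shares 639 exon bases with Capn10 and had 1669 counts in all, beside 1640 for Capn10. Sh3bp5 shares 116 exon bases with Capn7 on the opposite strand and changed by 0.26 ± 0.18 SE on the log2 scale (edgeR unadjusted p = 0.185).

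**Figure D4:**
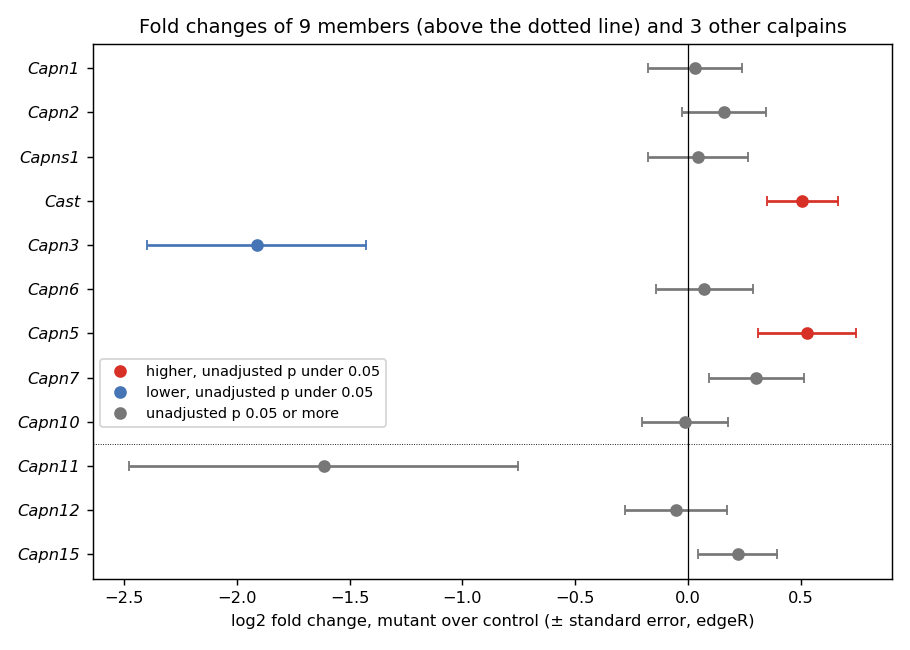
Log2 fold changes, mutant over control, with standard errors from edgeR (x axis), of the 9 members above the dotted line and of 3 other tested calpains below it (y axis). Capn3, at -1.91, is blue (lower), Cast at 0.51 and Capn5 at 0.53 are red (higher), and the others, in grey, have an unadjusted p of 0.05 or more.

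Outside the 9 genes, the calpain family has 7 further members in these files, of which 3 were tested and 0 had an unadjusted p under 0.05 in the edgeR test. Capn15, a calpain with zinc fingers, was at 45.1 to 60.5 CPM in control and 53.8 to 63.6 CPM in mutant libraries (log2 fold change 0.22 ± 0.17 SE, edgeR unadjusted p = 0.236). Capn12, known from the hair follicle, was at 35.6 to 40.0 CPM and 27.3 to 49.5 CPM (log2 fold change -0.05 ± 0.23 SE, unadjusted p = 0.821), and its sign turned above 0 without control replicate 3 or either of mutant replicates 1 and 3. It shares 316 exon bases on the opposite strand with Actn4, which had 31389 counts compared with 2308 for Capn12, so its level is uncertain. Capn11, known from testis, was at 0.749, 2.22 and 3.75 CPM in control and at 0.114, 1.47 and 0.531 CPM in mutant libraries (log2 fold change -1.62 ± 0.86 SE, edgeR unadjusted p = 0.0902). Its groups overlapped and its highest value was in control replicate 3, without which the log2 fold change was -0.997 (unadjusted p = 0.345). It passed the unadjusted threshold in edgeR without control replicate 1 (unadjusted p = 0.0363) or mutant replicate 2 (unadjusted p = 0.0328), at -2.00 and -2.73 on the log2 scale.

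Capn8 and Capn9, known from the stomach, and Capn13 were too low to test, with 46, 26 and 44 counts over the 6 libraries. Of these, control replicate 3 alone held 29, 11 and 26. Together with Capn11, these genes summed to 8.91 CPM in control replicate 3 and to 0.683 to 3.33 CPM in the other libraries. Capns2, the second small subunit, was at 0 counts in all 6 libraries.

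Set side by side per kilobase of exon, the control IVDs held Capns1 far above the other genes, at 279 ± 46.8 CPM per kilobase (SD, n = 3). Capn2 followed at 66.0 ± 8.58 and Capn6 at 18.9 ± 4.66, and the ranges of these 3 genes did not overlap. Capn1, at 12.4 ± 1.24, and Capn12, at 12.3 ± 0.787, did not differ beyond their spread, and neither did Capn15 at 9.55 ± 1.65 and Capn10 at 8.07 ± 1.02. Cast, at 5.15 ± 0.529, and Capn7, at 4.96 ± 0.659, overlapped in control IVDs, and so did Capn5, at 2.14 ± 0.204, and Capn3, at 1.97 ± 0.581, which were the lowest of the 11 genes. By the length of the longest coding transcript in place of all exons, Capn3 and Capn5 changed places. In mutant IVDs Cast was at 7.33 ± 0.271 and Capn3 at 0.522 ± 0.255, both in CPM per kilobase.

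**Figure D5:**
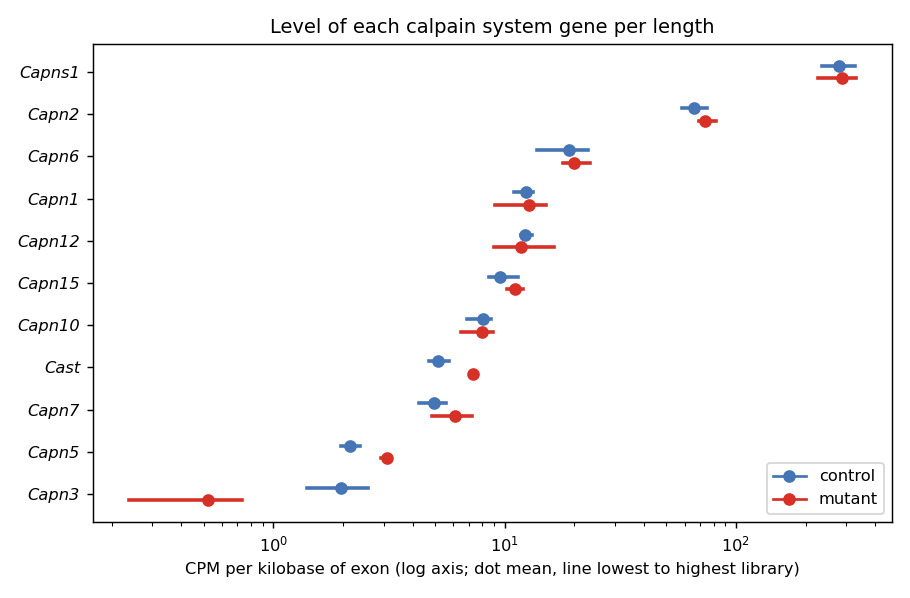
Level in CPM per kilobase of exon (x axis, log scale) of 11 calpain system genes (y axis), with the mean as a dot and the lowest to highest of 3 libraries as a line, for control and mutant IVDs. Capns1 is the highest at 279 in control, and Capn3 is the lowest, at 1.97 in control and 0.522 in mutant IVDs.

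Proteins that classical calpains are known to cleave were listed from textbook knowledge, 23 genes, all of which were tested. Of these, 18 had a fold change above 0 and 5 below, beside 7818 above 0 of the 16152 genes tested. At an unadjusted p under 0.05, 3 were higher and 1 lower, beside 2.89% and 4.32% of all genes, 0 passed after adjustment with edgeR, and the median log2 fold change was 0.09 beside -0.01 over all genes. Without control replicate 1, 20 of the 23 had a fold change above 0, 3 were higher and 0 lower past the unadjusted threshold, and the median was 0.33, and without control replicate 3 the median was 0.11, with 1 higher and 2 lower. Flna, which crosslinks actin, was at 209, 178 and 175 CPM in control and 269, 210 and 291 CPM in mutant libraries (log2 fold change 0.46, unadjusted p = 0.0394 from edgeR). Cttn, an actin-branching protein of the cell cortex, was at 121, 102 and 93.6 CPM and at 158, 132 and 142 CPM (log2 fold change 0.44, unadjusted p = 0.0308). In both genes all mutant libraries lay above all controls, by a narrow margin in Flna. Ezr, which ties actin to the membrane, was at 40.3, 45.4 and 55.6 CPM and at 88.3, 52.4 and 68.2 CPM, with overlapping groups (log2 fold change 0.56, unadjusted p = 0.0270).

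The calls of Flna, Ezr and Cttn were each lost in 4 of the 6 fits that left out 1 library, while their log2 fold changes remained within 0.36 to 0.59, 0.39 to 0.75 and 0.37 to 0.57. Flna and Cttn had an unadjusted p of 0.0605 or more from edgeR without control replicate 2, control replicate 3, mutant replicate 1 or mutant replicate 3, reaching 0.140 and 0.0963. Ezr had one of 0.0514 or more without control replicate 1, control replicate 2, mutant replicate 1 or mutant replicate 3, reaching 0.0941. Des, the muscle intermediate filament desmin, was the gene that was lower (log2 fold change -2.08, unadjusted p = 0.0446 from edgeR), but at 127 CPM in control replicate 1 and 5.24 to 13.2 CPM elsewhere it followed the muscle list, and its log2 fold change was 0.43 without that library. Leaving out mutant replicate 1, 2 or 3, Des was at -1.98, -2.04 and -2.20 on the log2 scale, and its unadjusted p was 0.0897 to 0.105. The most abundant of the listed genes did not pass. Acan, aggrecan, was at 4654 to 5462 CPM in control and 3565 to 5054 CPM in mutant libraries (log2 fold change -0.29, unadjusted p = 0.299), and the log2 fold changes of Vim, vimentin, and Ctnnb1, beta-catenin, were 0.40 and 0.31 (unadjusted p = 0.240 and 0.203).

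Of 8 genes for partners and substrates of calpain 3 in muscle, 2 had a fold change above 0 and 6 below, and 1 was lower at an unadjusted p under 0.05, beside 4.32% of all genes, at a median log2 fold change of -0.77. That gene, Ryr1, the calcium release channel of muscle, was at 102 CPM in control replicate 1 and 4.10 to 8.05 CPM in the other libraries (log2 fold change -2.64, unadjusted p = 0.0136 from edgeR), and without that library it was at -0.32 (unadjusted p = 0.406). Without control replicate 1 the median of the 8 genes was 0.42, with 2 higher and 0 lower past the test, and without control replicate 3 it was -0.90, with 0 higher and 3 lower. Aldoa, aldolase A, Ahnak, a large membrane scaffold, and Dysf, the membrane repair protein dysferlin, are the most abundant of the 8 and had log2 fold changes of -0.03, 0.11 and 0.29 (unadjusted p = 0.900, 0.539 and 0.260). Dysf was one of the 2 higher genes in the fit without control replicate 1 (log2 fold change 0.68, unadjusted p = 0.00343 from edgeR), in which Capn3 was lower, as given above.

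The tissue label was checked against markers of the disc. Genes of disc and cartilage, 14 in number, summed to 95001 to 157904 CPM in control and 126960 to 158896 CPM in mutant libraries, with 3 lower and 0 higher at an unadjusted p under 0.05, beside 4.32% and 2.89% of all genes (median log2 fold change -0.30). This became 1 lower gene, at a median of -0.21, without control replicate 1, and without control replicate 3 the median was -0.45 with 3 lower. Of 7 nucleus pulposus genes, 0 passed the test, and their median of 0.09 was -0.05 without control replicate 1 and 0.53, with 1 higher, without control replicate 3. Of 11 genes of prehypertrophic and hypertrophic chondrocytes, 9 had a fold change below 0 and 2 above, and 5 were lower and 0 higher past the unadjusted test, beside the same shares of all genes (median -0.55). Ihh, the hedgehog ligand of prehypertrophic cells, was at 188, 189 and 112 CPM in control and 63.3, 47.7 and 63.6 CPM in mutant libraries (log2 fold change -1.49, standard error 0.24), and Panx3, a channel of the same cells, at 108, 88.3 and 66.4 CPM and 36.8, 45.6 and 27.7 CPM (log2 fold change -1.25, standard error 0.24). Pth1r, the parathyroid hormone receptor, Mef2c and Runx2, transcription factors of hypertrophy, had log2 fold changes of -0.71, -0.66 and -0.55 (unadjusted p = 0.0147, 0.0239 and 0.0282 from edgeR), while the abundant Spp1 and Alpl, for osteopontin and alkaline phosphatase, were at 0.28 and -0.25 and did not pass. Without control replicate 1 these last 3 calls were lost (log2 fold changes -0.45, -0.48 and -0.34, unadjusted p = 0.0704, 0.0881 and 0.136), leaving 2 lower genes of the 11 and a median of -0.34. They were also lost, with folds closer to those over all libraries, without mutant replicate 2 for Pth1r (-0.64), without control replicate 3 or mutant replicate 1 or 3 for Mef2c (-0.61, -0.50 and -0.55) and without mutant replicate 1 or 3 for Runx2 (-0.50 and -0.41). The summed list was at 2737 to 4184 CPM in control and 2521 to 3029 CPM in mutant libraries, overlapping, and highest in control replicate 1. Ihh, Panx3, Pth1r and Runx2 were lower in every mutant than in every control library, as Capn3 was, and Spp1 was higher. The groups of the other genes of this list overlapped. The part of these cells in the Capn3 values was not tested.

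Markers of other cells in the pools were also read beside the members. Of 7 genes of outer annulus and tendon, 3 were higher and 0 lower at an unadjusted p under 0.05, beside 2.89% and 4.32% of all genes (median log2 fold change 0.86), with sums of 10621 to 25970 CPM in control and 22929 to 40958 CPM in mutant libraries, in the direction of Cast and Capn5. Of 7 listed genes for precursors of red blood cells, 1 was higher and 0 lower (median 1.02), with sums of 39.6 to 342 CPM and 213 to 449 CPM, and of 8 macrophage genes 1 was higher and 0 lower (median 0.39), with sums of 71.2 to 100.4 CPM and 82.9 to 176 CPM, both counts standing beside the same shares of all genes. These 3 lists had 4, 6 and 1 higher genes without control replicate 1, at medians of 1.07, 2.16 and 0.28. Without control replicate 3 they had 2, 1 and 0 higher genes at medians of 0.61, 0.78 and 0.56, and 0 were lower in either fit. The summed levels overlapped between genotypes. So did the 3 most abundant genes of each list, namely Col1a1, Col1a2 and Fmod, Hba-a1, Hba-a2 and Hbb-bs, and Csf1r, Lyz2 and C1qa. Single genes of each list were higher in every mutant than in every control library, as Cast and Capn5 were, beside 5.45% of all genes tested. Thbs4 and Tnmd, of tendon and outer annulus, were at 62.9 to 113 and 28.8 to 34.0 CPM in control and at 148 to 200 and 40.1 to 85.6 CPM in mutant libraries (log2 fold changes 1.09 and 0.96, edgeR unadjusted p = 0.00114 and 0.00376). Slc4a1, the anion exchanger of red cells, was at 1.11 to 4.49 and 5.95 to 26.4 CPM (log2 fold change 2.68, edgeR unadjusted p = 0.00114). Cd68, a lysosomal protein of macrophages, was at 3.60 to 5.46 and 7.67 to 7.85 CPM (log2 fold change 0.74, edgeR unadjusted p = 0.0401), and its unadjusted p was above 0.05 in 8 of 11 alternatives, at fold changes of 0.59 to 0.78 in those. The part of these cells in the values of Cast and Capn5 was not tested. Melanocytes, in which calpain 3 is also known, had 3 of 6 markers high enough to test, 0 of them past the test. The 6 markers summed to 31.6 to 43.1 CPM in control and 26.1 to 40.6 CPM in mutant libraries. Most of each sum was Mitf, at 22.4 to 31.2 CPM in control and 18.2 to 36.2 CPM in mutant libraries. Pmel was at 4.07 to 5.71 and 3.35 to 4.78 CPM, and Mlana at 1.39 to 3.11 and 0.571 to 1.59 CPM, both with overlapping groups. Among the 3 too low to test, Tyr, the tyrosinase of pigment synthesis, had 3, 5 and 41 counts in control and 0, 6 and 1 counts in mutant libraries, overlapping, and was highest in control replicate 3. Without the filter it was lower in mutant IVDs at an unadjusted p under 0.05 (log2 fold change -2.61, unadjusted p = 0.0363 and adjusted p = 0.530 from edgeR), as in DESeq2 (unadjusted p = 0.0453, adjusted p = 0.610). The part of melanocytes in the values of Capn3 was not tested.

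The 5 genes with a pattern most like that of Capn3 were sought among all tested genes, by the root mean square difference of log2 CPM over the 6 libraries after centring each gene on its own mean. They were Lrrc2, Slc47a1, Grhl1, Cfap46 and Zfp850, with differences of 0.29, 0.31, 0.32, 0.34 and 0.37. All 5 were at lower levels than Capn3, with control means of 1.62 to 3.96 CPM and mutant means of 0.405 to 1.602 CPM. In each, mutant replicate 3 was the lowest library and control replicate 3 the highest, which follows from choosing them for the pattern of Capn3. Lrrc2 and Zfp850 were above the filter's level of 1.023 CPM in the control libraries alone, with mutant libraries at 0.212 to 0.569 and 0.319 to 0.569 CPM.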

How the data were processed

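Poly(A) RNA of 6 pools of P20 IVDs was sequenced in paired ends with a kit that does not mark strand. For each library the authors deposited the number of reads on each gene symbol, as raw counts. The study's methods name Cutadapt, FastQC and HISAT2 on GRCm38.88, then StringTie and Ballgown for scaled expression levels. The submitters' processing notes instead name STAR 2.5.3a, HTSeq and DESeq2. The raw counts carry summary lines of the kind that HTSeq writes, and which aligner came before them was not settled here. Lines for reads outside genes, ambiguous or not aligned were left out (genes held 40.4% to 44.2% of reads). A table with the authors' own comparison (fold changes, p-values and scaled counts of selected genes) was not used.

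Counts were tested with edgeR 4.0.16 in R 4.3.3 (TMM, filterByExpr at a count minimum of 10, quasi-likelihood test, genotype alone, two-sided, Benjamini-Hochberg adjustment over 16152 genes), after the code was tested on simulated data. The call rule was an unadjusted p under 0.05, and adjusted values are given beside it. Standard errors were derived from the fold change and its F statistic (absolute fold change over the root of F). Alternatives were RLE size factors, no filter, a replicate block, DESeq2 1.42.0, limma-voom with quality weights (limma 3.58.1) and leaving out each library. Ratios within a library used unscaled counts.

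The members and lists were chosen with earlier results of these data known. Named genes were the members, their family and overlapping genes, the targeted gene, of each list genes past the unadjusted threshold or the 3 most abundant, and the 5 genes most like Capn3 (log2 of CPM plus 0.1). Of the muscle and of the other marker lists, not all of these are named, and the lists are given by counts and sums. Coordinates, exon lengths and coding sequence are from GENCODE M21 on GRCm38.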

Additional observations from a re-analysis of the deposited data

How the results depend on the processing

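Of the 9 members, Capn2, Cast, Capn3 and Capn7 kept their direction and their side of the unadjusted threshold in all 11 alternatives, and Capn5 kept its direction in all 11. The number of members past that threshold was 2 or 3 throughout, always with Capn3 and Cast. Both ratios to Capn1 plus Capn2 kept their sign with each library left out and per kilobase of exon. Genes at an unadjusted p under 0.05 numbered 1164, and 2276 without the filter, and 618 to 2427 with 1 library left out (618 without control replicate 3, 2427 without control replicate 1). Genes at an adjusted p under 0.05 numbered 1 with edgeR, 245 without the filter, 52 with DESeq2, 0 with limma-voom, where 1476 had an unadjusted p under 0.05, 0 with the replicate block, where 1002 had, and 0 to 31 with 1 library left out. The cause of these shifts was not tested.

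With 1 library left out, log2 fold changes that changed sign ranged from -0.074 to 0.24 for Capn1, -0.067 to 0.20 for Capns1, -0.10 to 0.25 for Capn6, -0.11 to 0.13 for Capn10, -0.34 to 0.15 for Capn12, -0.071 to 0.36 for Erap1, -0.23 to 0.16 for Aldoa, -2.61 to 0.43 for Des, -3.54 to 1.48 for Acta1 and -6.04 to 1.69 for Myh1. Capn10 was at 0.0025 without the filter, 0.0030 with DESeq2 and 0.020 with limma-voom, which gave 0.15 for Aldoa and 0.16 for Acta1.

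Same-numbered libraries deviated from their group means with correlations of 0.159, -0.132 and 0.102. With 3 libraries per genotype, such correlations cannot tell whether libraries of the same number were paired, for example by litter or batch. With the replicate number as a block, the log2 fold change was -1.94 for Capn3 (unadjusted p = 0.00631 from edgeR), 0.51 for Cast (unadjusted p = 0.0249) and 0.53 for Capn5 (unadjusted p = 0.0651), and 2 members passed. The block also moved Capn11 past the unadjusted threshold (log2 fold change -1.81, unadjusted p = 0.0437) and Flna out of it (log2 fold change 0.45, unadjusted p = 0.0603). Other named genes no longer called with it kept folds near those without it, namely Cd68 (0.74 without and 0.76 with the block), Tnni2 (-0.76 and -0.61), Slc47a1 (-1.31 and -1.39), Grhl1 (-1.48 and -1.44) and Cfap46 (-1.34 and -1.39), or had smaller ones, namely Des (-2.08 and -0.78), Ryr1 (-2.64 and -1.47), Acta1 (-2.98 and -0.092) and Myh1 (-5.06 and -0.13). Not every library correlated best with its own number.

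Depth limits Capn3, with 8 to 26 counts per mutant library, and the family members too low to test.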
